A study of Mus musculus with 24 samples.

Results

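MHC class II molecules display peptides taken up by endocytosis to CD4+ T cells, and 7 genes of this pathway were followed here in mouse microglia: H2-Aa, H2-Ab1, H2-Eb1, Cd74, Ciita, H2-DMa and H2-DMb1. They were chosen by symbol from the 20636 genes listed in both deposited TPM tables, and all 7 were found at both ages. TPM is a share of a library's transcripts, scaled to a fixed total and corrected for transcript length, so levels of different genes can be compared on it. The values come from RNA-seq of microglia from mice with both copies (WT), 1 copy (HET) or no copy (HOM) of 3110043O21Rik intact, the mouse counterpart of C9orf72, a gene linked to amyotrophic lateral sclerosis and frontotemporal dementia. The 6 groups were WT, HET and HOM animals aged 3 months and WT, HET and HOM animals aged 17 months, with 4 animals each, 24 libraries in all. All animals were labelled C57BL/6J, no treatment is labelled, and how the knockout allele was built is not given in the sources used here. The cells were taken from brains stripped of their meninges, dissociated with papain, cleared of myelin and pulled out with magnetic beads against CD11b, a surface protein that monocytes, neutrophils and border macrophages carry as well. Animals are named below by genotype and the animal number of the tables.

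In the mouse genome (GRCm38.p6, the mm10 build), H2-Ab1 lies at chr17:34263227-34269418, H2-Aa at chr17:34282744-34287823, H2-Eb1 at chr17:34305867-34316674, H2-DMa at chr17:34119693-34139101 and H2-DMb1 at chr17:34153191-34160229. Cd74 lies at chr18:60803849-60812652 and Ciita at chr16:10480014-10531064. All 7 are protein-coding. The span of H2-DMa overlaps Brd2 on the opposite strand, and whether strand was used in counting is not given in the sources used here. H2-DMb1 sits beside its close paralog H2-DMb2, so the split of reads between them is uncertain.

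A class II molecule is a dimer of an alpha and a beta chain. H2-Aa and H2-Ab1 encode the chains of the I-A molecule, and H2-Eb1 encodes the beta chain of I-E, whose alpha chain gene is inactive in C57BL/6 mice. Cd74, the invariant chain, holds the groove closed and escorts new dimers to endosomes, where the H2-DM dimer (H2-DMa and H2-DMb1) exchanges the remnant of Cd74 for peptide. Ciita, the class II transactivator, docks on RFX, CREB and NF-Y proteins bound to a shared promoter module and switches these genes on, most strongly after interferon-gamma. Microglia of the healthy brain are known for low class II levels, whereas border macrophages, dendritic cells and B cells carry much more.

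The promoters of 2 classical chain genes are printed because they hold letters of the kinds of site on which Ciita docks. The RefSeq promoter table of GRCm38.p6 holds 4 of the 7 genes (H2-Aa, H2-Eb1, H2-DMa and H2-DMb1). Each line below runs 5′ to 3′ on the gene's own strand, from base -120 to base -1 before the annotated start, at chr17:34287824-34287943 (minus strand) for H2-Aa and chr17:34305747-34305866 (plus strand) for H2-Eb1. Capitals mark the matches described after the sequences.
H2-Aa: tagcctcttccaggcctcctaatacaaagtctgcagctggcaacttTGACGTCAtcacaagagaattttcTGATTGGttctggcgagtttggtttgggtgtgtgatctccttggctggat
H2-Eb1: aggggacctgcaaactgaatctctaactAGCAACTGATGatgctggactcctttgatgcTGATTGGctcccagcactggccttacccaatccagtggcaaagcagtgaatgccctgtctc
The Y box core TGATTGG, the kind of site that NF-Y binds, starts at base -50 in H2-Aa and at base -61 in H2-Eb1. The X box core AGNNACNNATG, the kind of site that RFX binds, starts at base -92 in H2-Eb1 and has no match in the H2-Aa window. In H2-Aa the cAMP response element TGACGTCA, the kind of site that CREB binds, starts at base -74, and H2-Eb1 has no match to it. The Y box core is thus the only one of the 3 motifs found in both. A missing match in H2-Aa or H2-Eb1 says only that these exact letters are not in the window. H2-DMb1, whose sequence is not printed here, holds an X box core at base -95 and a Y box core at base -63 of its RefSeq start. In the GENCODE vM21 model H2-DMb1 starts further upstream, so these bases lie in its 5′ UTR there, and whether they are promoter depends on the annotation. The 2 windows of H2-DMa held no match, which says only that these letters are not in them. Both strands of each window (250 bases before to 50 after the start) were searched, and the marked matches do not overlap. Among 32851 such windows of 27025 genes, 7.82% held the Y box core, 3.09% the X box core and 1.79% the cAMP response element. The motifs were chosen after these sequences had been seen.

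The genotype labels were checked on the targeted gene. At 3 months 3110043O21Rik stood at 22.8 ± 2.23 TPM in WT (SD, n = 4), 9.73 ± 1.75 in HET and 0.139 ± 0.0918 in HOM. The 17-month values were 14.9 ± 1.48 TPM in WT, 7.20 ± 1.53 in HET and 0.0360 ± 0.0158 in HOM. Each pair of genotypes differed at each age with an exact two-sided permutation p of 0.0286, the smallest that 4 against 4 animals allow. Libraries held 16.7 to 46.4 M alignments, lowest in WT-7782 (M stands for mega). Depth separated HOM from the other genotypes without overlap: at 3 months HOM libraries held 30.6 to 33.8 M, WT 21.8 to 28.4 and HET 26.3 to 28.9, and at 17 months HOM held 40.7 to 46.4 M, WT 16.7 to 35.7 and HET 30.6 to 37.1. The part of depth in the differences given below was not tested. The animals' sex, read from 4 Y-linked genes, was unbalanced: the males were 1 WT, 4 HET and 2 HOM at 3 months and 1 WT, 0 HET and 3 HOM at 17 months. Of the microglial markers 8 of 8 were present, with summed levels of 24284 to 29906 TPM at 3 months and 14392 to 21192 TPM at 17 months. In bulk samples, a change in the share of cells of a type and a change in RNA per cell cannot be told apart.

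In WT microglia the 7 genes spanned a wide range of levels. At 3 months Cd74 stood at 1054 ± 57.6 TPM (SD, n = 4), H2-Aa at 526 ± 52.4, H2-Ab1 at 390.4 ± 11.3 and H2-Eb1 at 278 ± 20.6 TPM. H2-DMa followed at 208 ± 15.3 and H2-DMb1 at 177 ± 8.76 TPM. Ciita, the regulator, stood far below the genes it controls, at 2.97 ± 0.527 TPM. Among the 11587 genes kept at 3 months, Cd74 was at the 99.1 percentile of WT levels and Ciita at rank 10134. The order Cd74, H2-Aa, H2-Ab1, H2-Eb1, H2-DMa, H2-DMb1, Ciita held within 4 of 4 WT animals at each age. Between neighbours in that order, the ranges of the WT animals overlapped at 3 months only for H2-DMa and H2-DMb1. At 17 months they overlapped also for H2-Aa with H2-Ab1 and for H2-Ab1 with H2-Eb1.

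**Figure D1:**
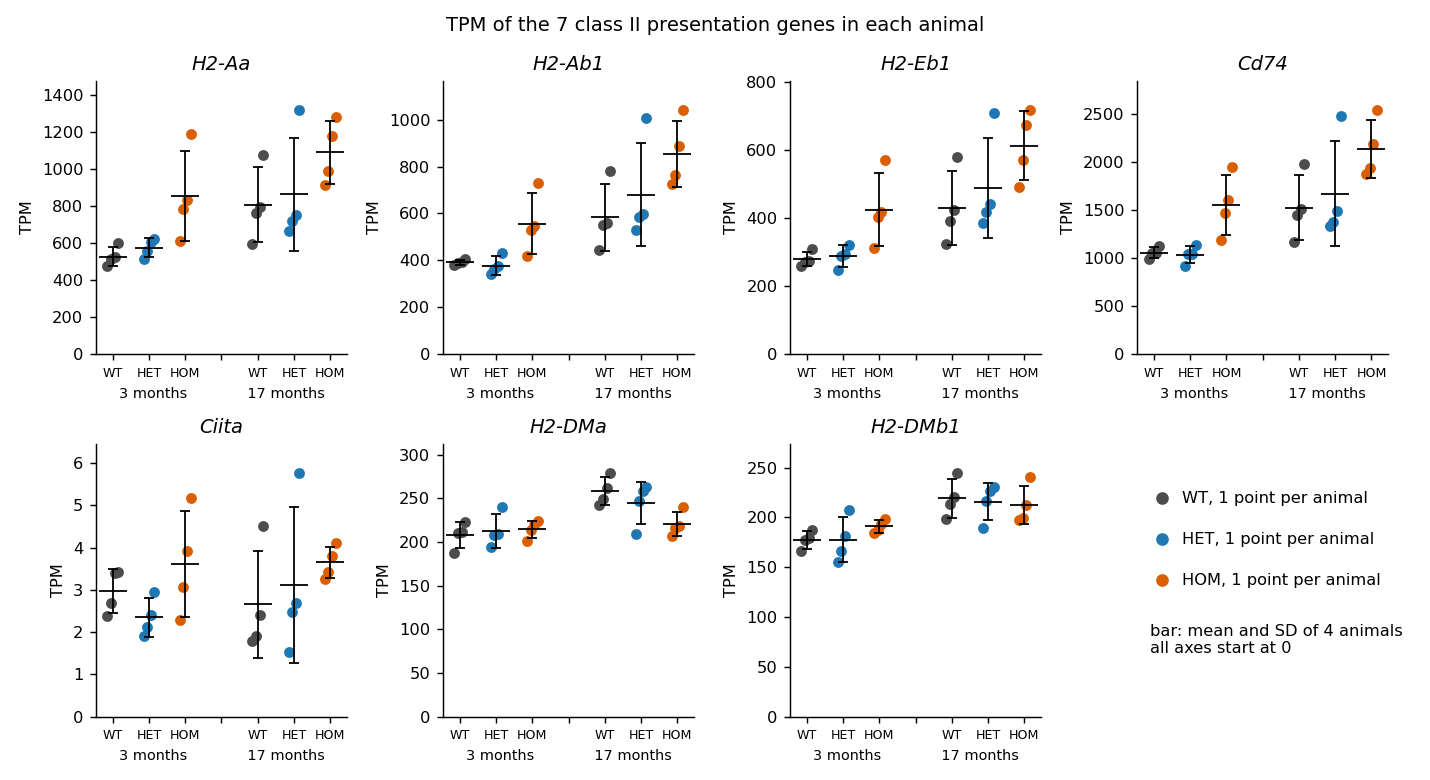
TPM of each of the 7 genes (vertical axes from 0, one scale per gene) in every animal, by genotype and age, with bars for the mean ± SD of 4 animals. At 3 months the HOM points of H2-Aa, H2-Ab1, H2-Eb1 and Cd74 all sit above the WT points, and at 17 months HET-7795 stands above the other HET animals in these 4 genes.

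The first comparison asked whether microglia that lack 3110043O21Rik carry other class II levels than WT microglia in young adults. At 3 months the chain genes and Cd74 were about 1.4 to 1.6 times as high in HOM as in WT, and the DM genes lay close to WT. Ciita averaged 3.61 ± 1.24 TPM in HOM and 2.97 ± 0.527 in WT (SD, n = 4), with overlap. None of the 7 genes passed the test over all genes (limma, adjusted p under 0.05), so none is called changed. Of the 11587 genes tested, 0.0604% were called. For each gene the 4 values of a group are given below in the order of the animal numbers.

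H2-Aa stood at 510.3, 521, 474 and 598 TPM in the WT animals, at 510.4, 606, 623 and 555 in the HET animals and at 781, 1188, 613 and 834 in the HOM animals. The lowest HOM animal, HOM-8286, lay just above the highest WT animal, and HOM-8285 stood apart at the top. The difference of HOM from WT was 0.66 ± 0.16 on the log2(TPM + 1) scale (SE, 95% interval 0.32 to 1.0, limma adjusted p = 0.0896).

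H2-Ab1, the partner chain, stood at 386, 391, 379 and 406 TPM in WT, at 339, 362, 432 and 375 in HET and at 546, 731, 418 and 528 in HOM. The WT animals were tightly grouped and the HOM animals spread widely above them. HOM exceeded WT by 0.48 ± 0.13 on the log2 scale (SE, 95% interval 0.20 to 0.77, limma adjusted p = 0.114).

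H2-Eb1 stood at 271, 274, 259.6 and 308 TPM in WT, at 247, 295, 322 and 288 in HET and at 402, 569, 311 and 416 in HOM. Again HOM-8285 was highest and HOM-8286 lowest of the HOM animals, the latter close to the highest WT animal. The estimate of HOM minus WT was 0.58 ± 0.14 on the log2 scale (SE, 95% interval 0.26 to 0.89, limma adjusted p = 0.0978).

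Cd74, the escort of new dimers, stood at 1046, 1053, 987 and 1128 TPM in WT, at 914, 1039, 1139 and 1045 in HET and at 1464, 1943, 1190.3 and 1600.3 in HOM. The HOM values lay above both other genotypes without overlap. On the log2 scale HOM lay 0.54 ± 0.12 above WT (SE, 95% interval 0.27 to 0.80, limma adjusted p = 0.0838).

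The remaining genes overlapped between HOM and WT at 3 months. Ciita stood at 2.37, 3.40, 2.69 and 3.43 TPM in WT and at 3.06, 5.18, 2.28 and 3.92 in HOM, with a log2 difference of 0.18 (95% interval -0.22 to 0.59, limma adjusted p = 0.606). H2-DMa, the alpha chain of the peptide exchanger, stood at 187, 211, 223 and 212 TPM in WT and at 224, 219, 214 and 201 in HOM, a log2 difference of 0.045 (95% interval -0.11 to 0.20, limma adjusted p = 0.761). H2-DMb1, its beta chain, stood at 166, 179.6, 187 and 177 TPM in WT and at 198, 188, 194 and 184 in HOM, a log2 difference of 0.11 (95% interval -0.063 to 0.28, limma adjusted p = 0.463). For the DM genes the intervals exclude a log2 difference as large as that estimated for H2-Aa, whereas the interval of Ciita is wide.

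As a group, 7 of 7 genes had a positive HOM minus WT estimate at 3 months, with a median of 0.48 against -0.099 over all genes tested. Without adjustment 4 genes had a p under 0.05, all higher in HOM, against 2.57% of all genes in that direction. Likewise 4 genes had HOM values that did not overlap WT, in both TPM and RPKM (a length-corrected read count per M alignments), against 1.78% of all genes in that direction on TPM. With animals weighted by their quality in limma, H2-Aa (0.47, adjusted p = 0.0389) and Cd74 (0.38, adjusted p = 0.0404) were called at 3 months, in a fit that called 1836 genes in place of 7. With sex as a term the log2 difference was 0.57 for H2-Aa and 0.48 for Cd74 (limma adjusted p = 0.160 for each). The females among the HOM animals had 613 and 834 TPM of H2-Aa, against 474 to 521 in the 3 WT females.

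HET microglia at 3 months showed no called difference from WT in any of the 7 genes, against 0.0432% of all genes. Estimates ran from -0.25 for Ciita to 0.13 for H2-Aa on the log2 scale, with limma adjusted p from 0.472 to 0.983. Ciita stood at 2.41, 2.96, 2.12 and 1.91 TPM in the HET animals, 2 of them below all WT animals. The 95% intervals reached -0.65 to 0.16 for Ciita and -0.21 to 0.47 for H2-Aa, so differences of that size were not excluded. None of the 7 genes had a p under 0.05 before adjustment, although 21.6% of all genes did. All 7 overlapped between HET and WT, where 11.3% of all genes did not. All HET animals were male and 3 of 4 WT animals female, and with sex as a term the median of the 7 estimates was -0.19 in place of -0.0040.

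Set against HET at 3 months, HOM microglia again had the higher estimates in the chain genes, Cd74 and Ciita. The log2 difference was 0.57 for Cd74, 0.54 for H2-Aa and H2-Ab1, 0.53 for H2-Eb1 and 0.43 for Ciita, with limma adjusted p from 0.257 to 0.555. For H2-DMa it was 0.014 and for H2-DMb1 0.11. No gene was called, against 0.0259% of all genes, and 5 genes had an unadjusted p under 0.05, all higher in HOM, against 3.3% of all genes in that direction. Cd74 alone did not overlap in TPM, where 1.5% of all genes did not overlap in that direction, and in RPKM it did overlap. The HOM animals of this comparison are those of the comparison with WT. Weighting animals by quality called 5 genes, H2-Aa, H2-Ab1, H2-Eb1, Cd74 and H2-DMb1, in a fit that called 3074 genes in place of 3.

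**Figure D2:**
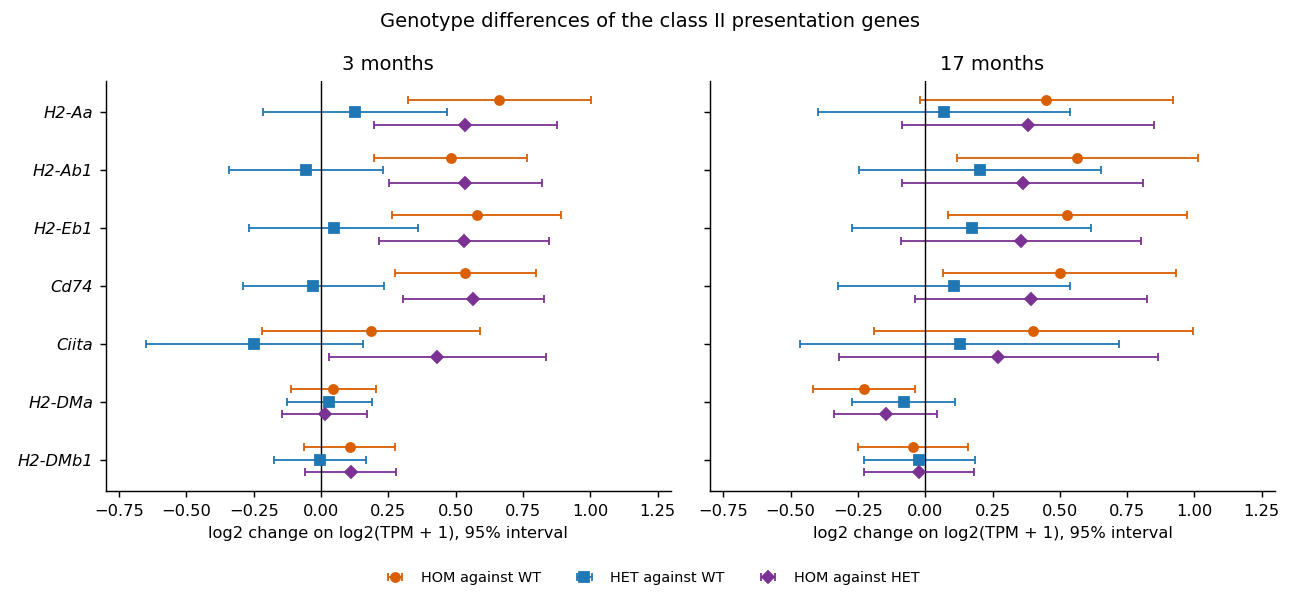
Difference in log2(TPM + 1) for each of the 7 genes in the 3 genotype comparisons at each age, with 95% intervals from the fit over all genes and a line at 0. For HOM against WT the intervals of H2-Aa, H2-Ab1, H2-Eb1 and Cd74 lie above 0 at 3 months, that of H2-DMa lies below 0 at 17 months, and no gene passed the test over all genes.

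At 17 months the same comparison was made in aged animals. The chain genes and Cd74 again had higher means in HOM than in WT, but the groups overlapped, and H2-DMa had the lower values in HOM without overlap. None of the 7 genes was called, against 0.712% of the 11792 genes tested.

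H2-Aa stood at 1078, 593, 795 and 763 TPM in WT, at 748, 665, 1317 and 718 in HET and at 1279.8, 1176, 911 and 987 in HOM. WT-7782 and HET-7795 stood apart from their groups and reached into the HOM range. The log2 difference of HOM from WT was 0.45 ± 0.22 (SE, 95% interval -0.019 to 0.92, limma adjusted p = 0.289).

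H2-Ab1 stood at 782, 442, 550.4 and 557 TPM in WT, at 585, 530.0, 1006 and 596 in HET and at 1040.1, 886, 724 and 763 in HOM. WT-7782 lay above the lower HOM animals, HOM-7899 and HOM-7901. HOM exceeded WT by 0.57 ± 0.21 on the log2 scale (SE, 95% interval 0.12 to 1.01, limma adjusted p = 0.166).

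H2-Eb1 stood at 581, 324, 424 and 392 TPM in WT, at 441, 386, 708 and 418 in HET and at 717, 674, 492 and 569 in HOM. Here too 2 of 4 HOM animals exceeded every WT animal. On the log2 scale HOM lay 0.53 ± 0.21 above WT (SE, 95% interval 0.083 to 0.97, limma adjusted p = 0.190).

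Cd74 stood at 1981, 1166, 1444 and 1507 TPM in WT, at 1486, 1374, 2481 and 1334 in HET and at 2537, 2185, 1873 and 1931 in HOM. The same WT and HET animals were highest as for the chain genes. The log2 difference of HOM from WT was 0.50 ± 0.20 (SE, 95% interval 0.068 to 0.93, limma adjusted p = 0.202).

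Ciita stood at 4.50, 1.79, 2.40 and 1.92 TPM in WT, at 2.46, 2.69, 5.76 and 1.52 in HET and at 4.10, 3.81, 3.26 and 3.43 in HOM. The highest WT and HET animals were again WT-7782 and HET-7795, and both exceeded every HOM animal. The estimate of HOM minus WT was 0.40 ± 0.27 on the log2 scale (SE, 95% interval -0.19 to 0.99, limma adjusted p = 0.483).

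H2-DMa stood at 262, 249.6, 279 and 242 TPM in WT, at 263, 247, 259 and 209.8 in HET and at 239.9, 216, 207 and 219 in HOM. The highest HOM animal, HOM-7835, lay just under the lowest WT animal, WT-7943. The log2 difference of HOM from WT was -0.23 ± 0.088 (SE, 95% interval -0.42 to -0.036, limma adjusted p = 0.188). With each library centred on its median the difference was -0.30 and passed the test (limma adjusted p = 0.0400), in a fit that called 609 genes in place of 84. In RPKM the HOM and WT values of H2-DMa did not overlap either. Brd2, which overlaps H2-DMa on the opposite strand, differed by 0.079 on the log2 scale at 17 months (limma adjusted p = 0.846).

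H2-DMb1 stood at 213, 220.4, 245 and 198 TPM in WT, at 231, 217, 226 and 189.9 in HET and at 240.1, 212, 198 and 199.8 in HOM. The 3 genotypes overlapped. HOM minus WT was -0.045 on the log2 scale (95% interval -0.25 to 0.16, limma adjusted p = 0.857).

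Of the 7 estimates of HOM against WT at 17 months 5 were positive, and their median was 0.45 against 0.054 over all genes. Before adjustment 3 genes (H2-Ab1, H2-Eb1 and Cd74) had a p under 0.05 in the higher direction, against 13% of all genes, and 1 gene (H2-DMa) in the lower direction, against 5.62%. Only H2-DMa did not overlap between the genotypes, on the lower side, where 4.05% of all genes also did not overlap. On the higher side 0 of the 7 genes did not overlap, against 9.5% of all genes. Weighting animals by quality called H2-Ab1 (0.70, adjusted p = 0.0413), H2-Eb1 (0.66, adjusted p = 0.0475), Cd74 (0.63, adjusted p = 0.0489) and H2-DMa (-0.22, adjusted p = 0.0385) with limma, in a fit that called 1858 genes. Of the HOM animals 3 of 4 were male, and of the WT animals 1 of 4.

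HET microglia at 17 months had estimates against WT between -0.081 for H2-DMa and 0.20 for H2-Ab1 on the log2 scale, with limma adjusted p from 0.918 to 0.992. No gene was called, against 0.237% of all genes, and none had an unadjusted p under 0.05, against 9.24%. The median of the 7 estimates was 0.11 with all animals and -0.10 without HET-7795. Its sign changed in 2 of the fits that left out 1 animal. Against HET, HOM microglia had log2 differences of 0.39 for Cd74, 0.38 for H2-Aa, 0.36 for H2-Ab1 and for H2-Eb1, 0.27 for Ciita, -0.15 for H2-DMa and -0.023 for H2-DMb1. None of these was called, against 1.86% of all genes, none had an unadjusted p under 0.05, against 13%, and limma adjusted p ran from 0.436 to 0.953.

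Whether the genotype difference itself changed with age was tested over all 24 libraries and 11436 genes. None of the 7 genes was called for HOM against WT, where 0.254% of all genes were. H2-DMa had the lowest p: its HOM minus WT difference was lower by 0.27 ± 0.11 on the log2 scale at 17 than at 3 months (SE, 95% interval of the change -0.51 to -0.039, limma adjusted p = 0.166). For the other genes the change in that difference lay between -0.21 for H2-Aa and 0.22 for Ciita, with limma adjusted p from 0.490 to 0.949. The interval for H2-Aa ran from -0.80 to 0.38, which leaves room for a smaller or a larger difference in old animals. No gene of the 7 was called for the change in HET against WT (0.691% of all genes) or in HOM against HET (2.03%).

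The ages stand in separate tables that may be scaled differently, so levels are set side by side without a test. In WT the mean TPM at 17 months over that at 3 months was 1.53 for H2-Aa, 1.49 for H2-Ab1, 1.55 for H2-Eb1 and 1.45 for Cd74. It was 1.24 for both DM genes and 0.892 for Ciita. In RPKM the same ratios were 1.93, 1.87, 1.95 and 1.82, then 1.57 for H2-DMa, 1.55 for H2-DMb1 and 1.13 for Ciita. The ratio thus depends on the table, and for Ciita its direction does. In TPM 4 of 4 old WT animals lay above all young WT animals for H2-Ab1, H2-Eb1, Cd74, H2-DMa and H2-DMb1, 3 of 4 for H2-Aa and 1 of 4 for Ciita. The share of all genes that did so was not determined, so these counts cannot be read as particular to the class II genes. In HOM the TPM ratios were 1.27 for H2-Aa, 1.53 for H2-Ab1, 1.44 for H2-Eb1, 1.38 for Cd74, 1.01 for Ciita, 1.03 for H2-DMa and 1.11 for H2-DMb1.

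Within a genotype, animals that were high in 1 chain gene were high in the others and in Cd74. Correlations were taken over the 12 animals of an age, on deviations of log2(TPM + 1) from the genotype mean, with an exact permutation p over 13824 orders within the genotypes. Benjamini-Hochberg adjustment covered 42 relations, 21 pairs at each of 2 ages. Among H2-Aa, H2-Ab1, H2-Eb1 and Cd74, Pearson r was 0.935 to 0.988 at 3 months and 0.968 to 0.992 at 17 months (highest adjusted exact permutation p = 0.00947 and 0.00365). Spearman's coefficient was 0.713 to 0.972 and 0.923 to 0.986 (highest adjusted exact permutation p = 0.0689 and 0.00820). Without the 2 animals farthest from their genotype mean in 1 gene of the pair, r was 0.667 to 0.958 and 0.914 to 0.984. The animals left out can thus differ between pairs. H2-DMa and H2-DMb1 were likewise tied to each other, with r = 0.90 and a Spearman coefficient of 0.846 at 3 months (adjusted exact permutation p = 0.00270 and 0.00856). At 17 months r was 0.915 and Spearman's coefficient 0.895 (adjusted exact permutation p = 0.00456 and 0.0131), and without 2 animals r was 0.851 and 0.880.

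Correlations of the DM pair with the chain genes and Cd74 did not pass the test. Between these sets r was 0.061 to 0.377 at 3 months and 0.292 to 0.488 at 17 months (lowest adjusted exact permutation p = 0.297 and 0.339). Spearman's coefficient was -0.091 to 0.601 and 0.140 to 0.566 (lowest adjusted exact permutation p = 0.0933 and 0.146). Without the 2 farthest animals r lay between 0.283 and 0.860 at 3 months and between 0.343 and 0.505 at 17 months. At 3 months the pairs of H2-DMa with H2-Aa (0.200 to 0.283) and Cd74 (0.239 to 0.358) stayed low without their 2 farthest animals. The pair of H2-Ab1 with H2-DMb1 went from 0.283 to 0.860. Ciita, the regulator, correlated with the chain genes and Cd74 with r of 0.657 to 0.822 at 3 months and 0.858 to 0.91 at 17 months (adjusted exact permutation p from 0.0489 to 0.219 and from 0.00387 to 0.0209). Spearman's coefficient was 0.378 to 0.741 and 0.713 to 0.839 (adjusted exact permutation p from 0.0562 to 0.428 and from 0.00820 to 0.0554). Without the 2 farthest animals of each pair r was -0.19 to 0.45 and 0.505 to 0.686. At 3 months the relation of Ciita to its targets thus rests on the animals left out.

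**Figure D3:**
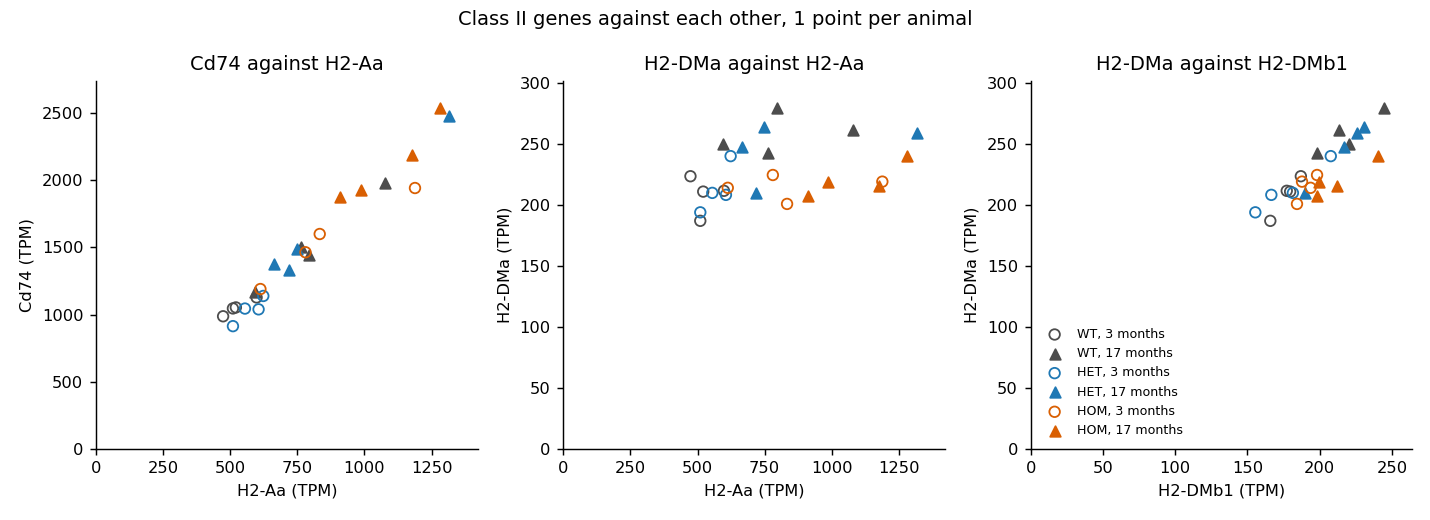
TPM of pairs of genes in each of the 24 animals: Cd74 against H2-Aa, H2-DMa against H2-Aa and H2-DMa against H2-DMb1, coloured by genotype, with open circles for 3 months and filled triangles for 17 months. Cd74 follows H2-Aa along a line through all groups, whereas H2-DMa stays between 187 and 279 TPM over the whole range of H2-Aa.

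Ratios of 2 genes within an animal do not depend on the scaling of the library. Cd74 over H2-Aa stayed between 1.63 and 2.08 in the 12 animals at 3 months and between 1.82 and 2.07 at 17 months, with coefficients of variation of 7.03% and 4.35%. H2-Aa over H2-DMa was 2.12 to 2.83 in WT, 2.60 to 2.91 in HET and 2.86 to 5.43 in HOM at 3 months. At 17 months it was 2.38 to 4.12 in WT, 2.69 to 5.09 in HET and 4.40 to 5.46 in HOM. In this ratio all 4 HOM animals of each age lay above all WT animals, in TPM and in RPKM. Of Cd74 over H2-DMa this held at 17 months, but at 3 months for 3 of 4 HOM animals (WT 4.42 to 5.60, HOM 5.56 to 8.87). In H2-Aa over H2-DMa, HET-7795 was the HET animal inside the HOM range at 17 months. H2-DMa over H2-DMb1 was 1.13 to 1.23 in WT, 1.11 to 1.14 in HET and 0.999 to 1.10 in HOM at 17 months. At 3 months it overlapped between WT (1.13 to 1.2) and HOM (1.09 to 1.17). H2-Aa over H2-Ab1 was 1.34 to 1.44 in WT at 17 months, above the 1.2 to 1.31 of HET and the 1.23 to 1.33 of HOM. At 3 months that order was not seen: the ratio was 1.25 to 1.48 in WT, 1.44 to 1.67 in HET and 1.43 to 1.63 in HOM. These ratios were formed after the values had been seen and were not tested.

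The other genes of the pathway were taken from 5 lists. None of their members was called in any of the 6 comparisons, where 0.0259% to 1.86% of all genes were. Of 6 other class II genes, 5 stood in the table and 3 were kept. H2-Oa and H2-Ob encode H2-O, a modulator of H2-DM. At 17 months H2-Oa stood at 78.8 ± 14.0 TPM in HOM and 105 ± 7.85 in WT (SD, n = 4), a log2 difference of -0.43 (limma adjusted p = 0.128). H2-Ob stood at 31.2 ± 2.75 and 38.6 ± 3.92 TPM without overlap, a log2 difference of -0.30 (limma adjusted p = 0.174). So H2-DMa and both H2-O genes had lower means in HOM than in WT at 17 months, though none passed the test. H2-Oa was also lower in HET, at 83.8 ± 13.8 TPM (SD, n = 4). Its HET values (63.5 to 93.1 TPM) did not overlap WT (98.5 to 116), whereas its HOM values (67.3 to 98.9) did. H2-Ob stood at 36.3 ± 4.74 TPM in HET and overlapped WT. The means of H2-DMb1 (212 TPM in HOM, 219 in WT) and H2-DMb2 (29.0 and 29.4 TPM) differed little. At 3 months the log2 differences were 0.045 for H2-Oa and -0.083 for H2-DMb2.

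Among 14 regulators of class II transcription and interferon-gamma signalling, 13 had negative HOM minus WT estimates at 3 months, with a median of -0.15 against -0.099 over all genes. An unadjusted p under 0.05 in the lower direction was found for 5 of 14, against 17.1% of all genes. Rfx5, a subunit of the RFX complex, stood at 3.13 ± 1.93 TPM in HOM and 5.72 ± 1.91 in WT at 3 months (SD, n = 4; log2 difference -0.80, limma adjusted p = 0.297). Nfya, a subunit of NF-Y, stood at 20.2 ± 1.32 and 30.8 ± 9.28 TPM (-0.54, limma adjusted p = 0.208). At 17 months 5 of the 14 estimates were positive and the median was -0.041. Rfx5 then differed by 0.47 (limma adjusted p = 0.589). Rfxap, another RFX subunit, stood at 12.8 ± 0.412 TPM in HOM and 9.22 ± 1.54 in WT without overlap (log2 difference 0.45, limma adjusted p = 0.0837).

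Of 10 genes of class II processing and turnover, 9 were kept. At 3 months 3 of 9 estimates of HOM against WT were positive, with a median of -0.022. March1, a ubiquitin ligase that removes class II molecules from the surface, stood at 52.1 ± 4.21 TPM in HOM and 62.1 ± 4.20 in WT without overlap (SD, n = 4; log2 difference -0.25, limma adjusted p = 0.413). Cd83, which opposes that ligase, differed by 0.21 at 3 months (limma adjusted p = 0.767) and by 0.40 at 17 months (limma adjusted p = 0.203). At 17 months 7 of 9 estimates were negative, with a median of -0.24. Sppl2a, the protease that clears the remaining membrane stub of Cd74, stood at 34.6 ± 4.35 TPM in HOM and 47.6 ± 2.57 in WT without overlap (log2 difference -0.45, limma adjusted p = 0.0959).

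Costimulatory molecules accompany class II on antigen-presenting cells, and 5 of 6 such genes were kept. Their median HOM minus WT estimate was 0.014 at 3 months and 0.092 at 17 months. Cd274, the ligand of PD-1, differed by 0.18 (limma adjusted p = 0.467) and Cd40 by 0.12 (limma adjusted p = 0.783) at 3 months. At 17 months Cd40 differed by 0.45 (limma adjusted p = 0.489) and Cd80 by -0.26 (limma adjusted p = 0.620). Within the class II region of chromosome 17 lie also class I processing genes and Brd2, and 6 of 6 were kept. Their median was -0.0054 at 3 months, where Brd2 differed by -0.21 (limma adjusted p = 0.429) and the proteasome subunit gene Psmb9 by 0.085 (limma adjusted p = 0.476). At 17 months 6 of 6 estimates were positive with a median of 0.17. The peptide transporter gene Tap1 differed by 0.35 (limma adjusted p = 0.175) and Psmb9 by 0.30 (limma adjusted p = 0.121), the latter without overlap at 187 ± 25.1 TPM in HOM and 151 ± 8.73 in WT.

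Other cells in a CD11b sort carry class II. Summed monocyte and neutrophil markers had higher medians in HOM and in HET than in WT at both ages. The 10 monocyte markers summed to 129 to 191 TPM in WT, 138 to 249 in HET and 172 to 443 in HOM at 3 months. At 17 months these ranges were 132 to 285, 154 to 497 and 352 to 1549 TPM. Of the 9 monocyte markers kept, 8 had positive HOM minus WT estimates at 3 months (median 0.73) and 9 at 17 months (median 1.53). Of them 0 were called, against 0.0604% and 0.712% of all genes. An unadjusted p under 0.05 in the higher direction was found for 5 of 9 at 3 months and 8 of 9 at 17 months, against 2.57% and 13% of all genes. HOM and WT did not overlap, with HOM higher, for 2 of 9 and 4 of 9, against 1.78% and 9.5% of all genes. In HET against WT, 6 of 9 monocyte estimates were positive at 3 months (median 0.20) and 7 at 17 months (median 0.50). The 9 neutrophil markers summed to 745 to 2363 TPM in WT, 1525 to 4905 in HET and 1753 to 4592 in HOM at 3 months. At 17 months these ranges were 412 to 2487, 550 to 11134 and 2223 to 5966 TPM. Their median HOM minus WT estimates were 1.21 and 1.68, with 0 called, against 0.0604% and 0.712% of all genes. At each age 5 of 9 were higher in HOM at an unadjusted p under 0.05, against 2.57% and 13% of all genes. In HET against WT, 9 of 9 neutrophil estimates were positive at each age, with medians of 0.86 and 1.36. The part of these markers in the class II differences was not tested.

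At 3 months the HOM animals had the same order in the class II sum and in the sum of 12 border macrophage markers. No other group had the same order in both sums. HOM-8285 led with 4844 TPM of class II genes and 1181 TPM of border macrophage markers, and HOM-8286 was last with 2943 and 878 TPM. HOM-8285 was also the highest HOM animal in the dendritic cell sum, at 143 TPM, and in the T and NK cell sum, at 120.2 TPM. In the monocyte sum the order was another, with HOM-8282 highest at 443 TPM. Among the old animals, HOM-7899 had the highest monocyte sum of all animals, at 1549 TPM, and the lowest sum of the 7 class II genes among the old HOM animals, at 4408 TPM. WT-7782 had the lowest monocyte sum of its group, at 132 TPM, the lowest neutrophil sum, at 412 TPM, and the highest class II sum, at 4900.0 TPM. HET-7795, the old HET animal with the highest class II sum (6002 TPM), also had the highest border macrophage sum, at 1456 TPM. Other groups differed. At 3 months HET-8304 led the HET animals in class II genes, but HET-8303 in border macrophage markers. Of the old HOM animals, HOM-7835 led in class II genes, but HOM-7901 in border macrophage markers, at 1200.5 TPM. WT-7782 had a border macrophage sum of 829 TPM, below the 946 TPM of WT-7785. The part of any cell type in the class II levels of these animals was not tested.

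Border macrophage markers summed to 917 to 1031 TPM in WT, 973 to 1400.4 in HET and 878 to 1181 in HOM at 3 months. At 17 months the ranges were 514 to 946, 615 to 1456 and 629 to 1200.5 TPM. Of these 12 markers 9 had positive HOM minus WT estimates at 3 months (median 0.062) and 12 at 17 months (median 0.36). Of them 0 were called, against 0.0604% and 0.712% of all genes. In HET against WT, 10 of the 12 border macrophage estimates were positive at 3 months (median 0.30) and 12 at 17 months (median 0.45). In HOM against HET at 3 months 9 of 12 were negative (median -0.21). HOM and WT overlapped in the border macrophage sum at both ages, and its part in the class II differences was not tested. Dendritic cell markers summed to 100.3 to 133 TPM in WT and 109 to 143 TPM in HOM at 3 months, and to 87.4 to 163 and 117 to 157 TPM at 17 months. Most of that sum was Batf3 and Cd209a, while Xcr1 and Clec9a, which mark cross-presenting dendritic cells, averaged under 1 TPM in every group. Of the 8 dendritic cell markers kept, 5 had positive HOM minus WT estimates at 3 months (median 0.11) and 8 at 17 months (median 0.34). At 17 months 3 of these 8 did not overlap, all higher in HOM, against 9.5% of all genes in that direction. At that age 0 were called, against 0.712% of all genes. The part of dendritic cell markers in the class II differences was not tested. B cell markers summed to 57.3 to 75.4 TPM at 3 months and 36.4 to 74.0 TPM at 17 months. Of the 4 B cell markers kept at 17 months, 3 had positive HOM minus WT estimates (median 0.56). Of these 4 markers 0 were called, against 0.712% of all genes. Higher in HOM at an unadjusted p under 0.05 were 2 of 4, against 13%, and 2 of 4 did not overlap, against 9.5%. At 3 months 2 were kept and 1 was positive (median -0.21). The part of B cell markers in the class II differences was not tested. The B cell marker Ms4a1 averaged 0.0536 to 0.240 TPM per group at 3 months and 0.145 to 0.728 TPM at 17 months. T and NK cell markers summed to 38.5 to 60.4 TPM in WT and 46.5 to 120.2 in HOM at 3 months, and to 45.8 to 144 and 81.9 to 165 TPM at 17 months. Of the 8 microglial markers, 7 had negative HOM minus WT estimates at 17 months, with a median of -0.19 against 0.054 over all genes. An unadjusted p under 0.05 in the lower direction was found for 3 of 8, against 5.62% of all genes. Gpr34 was the 1 marker called in that comparison, against 0.712% of all genes. It stood at 369 ± 57.5 TPM in HOM and 653 ± 86.2 in WT (SD, n = 4; limma adjusted p = 0.0349). In HET against WT at 17 months, 8 of 8 microglial estimates were negative, with a median of -0.13 against -0.012 over all genes.

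**Figure D4:**
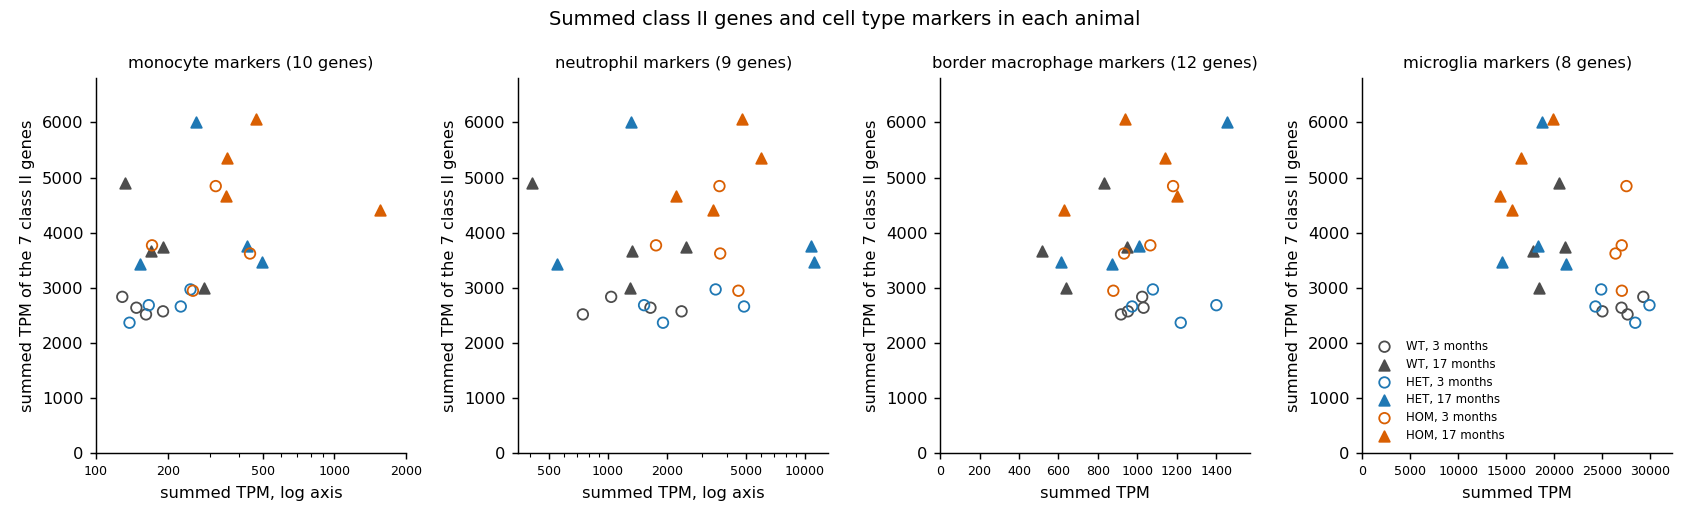
Summed TPM of the 7 class II genes against summed TPM of monocyte and neutrophil markers (log axes), border macrophage markers and microglial markers in each of the 24 animals, by genotype and age. HOM-7899 is at the far right of the monocyte panel with a class II sum of 4408 TPM, lowest of the old HOM animals, and HET-7795 is at the far right of the border macrophage panel with 6002 TPM.

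The genes whose pattern was most like that of the class II genes were looked for among 8706 genes that averaged 5 TPM or more at both ages. Likeness was the correlation, over the 12 animals of an age, of within-genotype deviations with the mean deviation of the 7 genes, and genes were ranked by the lower of the correlations at 3 and 17 months. No gene exceeded 0.8 at both ages. The 8 that ranked highest were Aoah, Chp2, Cd4, Nceh1, Axl, Tspyl3, Clec4n and Ccl8, with lower correlations from 0.685 to 0.783. All libraries of an age share a table, so depth and cell makeup also enter these values, which are a description. At 3 months the 2 animals with the largest mean deviation of the 7 genes, in either direction, were also left out. The correlation then ran from -0.26 for Ccl8 to 0.79 for Tspyl3, so for most of the 8 genes it rested on those animals. The chemokine gene Ccl8 stood at 17.6 ± 4.11 TPM in WT and 30.0 ± 13.2 in HOM at 3 months, with 17-month values of 63.1 ± 17.6 and 130.3 ± 14.7 TPM (SD, n = 4; limma adjusted p = 0.184 and 0.128). Axl, a receptor for dying cells, stood at 30.2 ± 1.22 TPM in WT and 31.5 ± 5.82 in HOM at 3 months, with 17-month values of 76.4 ± 13.1 and 60.5 ± 10.9 TPM (limma adjusted p = 0.869 and 0.344).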

How the data were processed

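RNA-seq of CD11b-sorted microglia was analysed in 24 libraries, 4 per genotype and age. The authors deposited 1 TPM table per age with 20636 genes and 1 RPKM table per age with 18721 genes at 3 months and 19210 at 17 months. The deposited TPM columns sum to 78.9% to 90.7% of the total that the unit implies. The submitters' processing notes name mm10 and the tools Salmon 0.8.2, TopHat2 2.1.1, DESeq2 and Partek 7.17.0918. Which tool made which table is not given in the sources used here. The RPKM headers pair animal numbers with genotypes, and animals headed hemi were taken as HET.

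Genes that averaged 1 TPM or more in the 12 animals of their age were tested on log2(TPM + 1) with limma 3.58.1 in R 4.3.3, 11587 genes for 3 months and 11792 for 17 months. A single fit per age held a mean per genotype. Moderated tests with a trend were two-sided, Benjamini-Hochberg adjusted over all genes kept, and called at 0.05. For low genes such as Ciita this scale makes changes look smaller. The tables hold no counts, so the depth behind single values is not known beyond the alignments per library. An animal was read as male where 4 Y-linked genes summed to over 5 TPM. The other settings tried were the RPKM tables, pseudocounts of 0.1 and 5, other filters and scalings, a sex term, array weights, fits of 2 genotypes alone, and each animal left out. The genes named beside the 7 were those called in 5 pathway lists or else the 2 per list with the largest HOM minus WT change at each age, and the 8 genes most alike. The 7 genes, the lists and the tests were chosen with earlier results of these data known. Python 3.11.15, numpy 2.4.6, pandas 2.3.3, scipy 1.17.1 and matplotlib 3.10.9 made the descriptions and figures, and the fit was tested on simulated data.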

Additional observations from a re-analysis of the deposited data

Results flagged for a closer look

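In 4 of the 42 groups of 4 animals (7 genes, 6 groups), 1 animal stood far from the other 3, with a gap to the nearest that exceeded Dixon's critical value at the 95% level. Chance flags about 1 in 20 groups, and the 4 genes vary together, so these are not independent. In all 4 the animal was HET-7795 at 17 months. It had 1317 TPM of H2-Aa, where the other HET animals had 665 to 748 TPM. Its H2-Ab1 stood at 1006 TPM against 530.0 to 596, its H2-Eb1 at 708 TPM against 386 to 441, and its Cd74 at 2481 TPM against 1334 to 1486. Its H2-DMa (259 TPM) and H2-DMb1 (226 TPM) lay within the range of the other HET animals.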

How the results depend on the processing

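With 4 animals per group, none of the 7 genes passed the test in any of the 6 comparisons, and leaving out any animal called none (range 0 to 0). No paired analysis was possible because the table columns carry animal numbers that cannot be tied to the labels' replicate numbers. Array weights called 2 (HOM against WT), 1 (HET against WT, H2-DMb1 at -0.16) and 5 (HOM against HET) of the 7 genes at 3 months, and 4 (HOM against WT) and 1 (HOM against HET) at 17 months. Median centring shifted the median of all genes by 0.11 in HOM and HET against WT at 3 months. In HOM against WT at 17 months it shifted that median by -0.072 and called 1 of the 7 genes. The median of the 7 log2 changes moved to -0.19 (sex term) and -0.16 (array weights) in HET against WT at 3 months, and with array weights at 17 months to 0.61 in HET against WT and -0.0065 in HOM against HET. Without each animal in turn, the medians ran at 3 months from 0.34 (without HOM-8285) to 0.61 in HOM against WT, from -0.077 to 0.057 in HET against WT and from 0.36 to 0.66 in HOM against HET. At 17 months they ran from 0.31 (without WT-7783) to 0.62 (without WT-7782), from -0.10 to 0.24 and from 0.26 to 0.55. The lowest adjusted p of Cd74 in HOM against WT at 3 months among these fits was 0.0525, and the highest 0.265 (limma).

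Of the log2 changes of single genes under other settings, 421 kept their direction and side of the threshold, 14 passed it and 21 reversed. Ciita in HOM against WT at 3 months was -0.031 with array weights. In HET against WT at 3 months, H2-Ab1 was 0.0095 in RPKM and 0.055 with median centring, and Cd74 was 0.036 and 0.081. H2-DMb1 was 0.046 in RPKM, 0.017 rescaled to a fixed total, 0.11 with median centring and 0.029 with quantile normalization. With a sex term H2-Aa was -0.14, H2-Eb1 -0.19 and H2-DMa -0.021, and with array weights H2-Eb1 was -0.11 and H2-DMa -0.082. In HOM against HET at 3 months, H2-DMa was -0.0064 rescaled and -0.0087 with quantile normalization. In HET against WT at 17 months, H2-DMb1 was 0.020 with a sex term and 0.034 with array weights, where H2-DMa was 0.0078. In HOM against HET at 17 months, H2-Aa was -0.0065 and Ciita -0.23 with array weights. The change with age of HET against WT reversed with a sex term for H2-Aa (0.18) and H2-DMb1 (0.067), and 82 other such values kept their direction and side. A minimum mean of 5 TPM left Ciita without a value. The count of genes called over all genes ran from 2 to 1836 in HOM against WT at 3 months (7 as reported) and from 1 to 1858 at 17 months (84). It ran from 1 to 3507 (5) and 0 to 659 (28) in HET against WT, and from 1 to 3074 (3) and 45 to 1136 (219) in HOM against HET, at 3 and 17 months. The cause of these changes was not tested.

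Estimates near 0 changed sign when 1 animal was left out, and each such range follows. At 3 months, H2-DMa ran from -0.0055 to 0.080 in HOM against WT and from -0.030 to 0.072 in HOM against HET. In HET against WT at 3 months, always lowest without HET-8304 and highest without HET-8302, H2-DMa ran from -0.027 to 0.075, H2-DMb1 from -0.081 to 0.057, Cd74 from -0.077 to 0.028 and H2-Eb1 from -0.0091 to 0.12. At 17 months, H2-DMb1 ran from -0.10 to 0.0096 in HOM against WT, from -0.068 to 0.039 in HET against WT and from -0.083 to 0.010 in HOM against HET. In HET against WT at 17 months, lowest without HET-7795 and highest without WT-7782, H2-Aa ran from -0.15 to 0.22, Cd74 from -0.10 to 0.24, H2-Ab1 from -0.0014 to 0.35, H2-Eb1 from -0.021 to 0.33 and Ciita from -0.14 to 0.34. The change with age of HOM against WT ran from -0.19 to 0.10 for H2-Eb1, from -0.16 to 0.098 for Cd74 and from -0.042 to 0.24 for H2-Ab1. That of HET against WT ran from -0.079 to 0.060 for H2-DMb1, from -0.28 to 0.093 for H2-Aa, from -0.068 to 0.28 for H2-Eb1 and from -0.070 to 0.27 for Cd74. That of HOM against HET ran from -0.30 to 0.068 for H2-Aa, from -0.30 to 0.031 for H2-Ab1, from -0.31 to 0.017 for H2-Eb1, from -0.29 to 0.034 for Cd74 and from -0.36 to 0.11 for Ciita, each highest without HET-7795.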
